A study of Homo sapiens with 27 samples.

Results

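The ATP-binding cassette (ABC) transporters of subfamilies A to G were described across 9 human cell lines by RNA sequencing. A gene was a member when the GENCODE 29 annotation lists it as protein coding and its symbol is ABC, a letter from A to G and a number. This gave 45 genes of the 34584 genes whose transcripts could be matched. The choice used names only and no measured value. TAP1, TAP2 and CFTR belong to the same superfamily under other symbols and were kept as partner genes.

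Each line was represented by 3 libraries, which the series' design text calls biological replicates, giving 27 libraries in all. The lines were SK-Mel 24 and SK-Mel 28 (both labelled skin, melanoma lines), U251 (brain), Caco2 (colon), HepG2 (liver), A549 (lung), BJ (labelled epithelial), RT4 (labelled kidney) and U2-OS (bone). None carried a stated treatment or genetic change. A549 and BJ grew in DMEM, RT4 and U2-OS in McCoy medium and the other 5 lines in EMEM, with a larger share of serum for SK-Mel 24 than for the rest, so a line and its medium cannot be told apart. Each line is a single established line, so a difference between lines is not a difference between tissues. The p-values measure the spread between the 3 libraries of a line.

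Defining markers were checked against the labels, as levels in TPM, the usual unit for a share of all transcripts of a library after correction for length. HepG2 had ALB at 7110 TPM and Caco2 had VIL1, CDX2 and ALPI of the enterocyte at 333, 56.6 and 10.6 TPM, but FABP2 at 0.0306 TPM, below its 0.363 TPM in HepG2. U251 had FABP7 and SOX2 of astroglia at 125 and 39.4 TPM, FABP7 also standing at 109.7 TPM in SK-Mel 24, with GFAP at 3.11 TPM against 8.6 in SK-Mel 24, and AQP4 at 0. U2-OS had RUNX2 of the osteoblast at 12.2 TPM, below the 17.7 TPM of U251, with SP7 at 0.0221 TPM, and HepG2 exceeded it for ALPL (5.98 against 3.47 TPM) and BGLAP (1.55 against 0.202 TPM). BJ had COL1A2 at 7215 TPM and LUM at 1770 TPM, fibroblast genes, and the epithelial genes CDH1 and EPCAM at 0.363 and 0.668 TPM, which goes against its epithelial label. RT4 had the urothelial genes UPK2 and UPK1B at 163 and 129 TPM, while UMOD and SLC22A6 of the kidney tubule were at 0, which goes against its kidney label. A549 had the alveolar genes NKX2-1, SFTPB, SFTPC and NAPSA at 0.0135 to 0.877 TPM. SK-Mel 24 kept SOX10 at 252 TPM, but its pigment genes TYR, MLANA and PMEL were at 0.329 to 3.1 TPM against 444 to 8877 TPM in SK-Mel 28.

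Most ABC proteins use ATP to move a substrate across a membrane. Subfamilies A and G include exporters of sterols and phospholipids, subfamilies B and C include the multidrug pumps, the bile exporters, the receptors for sulfonylureas and several transporters of mitochondria and lysosomes, and subfamily D acts in peroxisomes and lysosomes. The members of subfamilies E and F have no membrane-spanning part and act in translation. In the body the bile and sterol exporters are best known from hepatocytes and enterocytes, and the pumps ABCB1, ABCC1 and ABCG2 from drug resistance of tumour cells.

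Of the promoters that RefSeq gives on GRCh38.p14, 2 stretches are shown because members with a clear line preference start there. ABCG5 and ABCG8, which form 1 sterol exporter as a pair, are read from opposite strands with starts 132 bases apart, and the 131 bases between those starts are given on the plus strand of chr2:43838840-43838970. ABCC2, the pump for conjugated bile pigments, is shown by the 250 bases before its start on the plus strand at chr10:99782390-99782639, with the letters TATAAA in capitals.
ABCG5 to ABCG8: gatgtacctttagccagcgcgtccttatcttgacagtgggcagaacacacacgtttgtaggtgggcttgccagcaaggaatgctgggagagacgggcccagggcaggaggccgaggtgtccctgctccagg
ABCC2: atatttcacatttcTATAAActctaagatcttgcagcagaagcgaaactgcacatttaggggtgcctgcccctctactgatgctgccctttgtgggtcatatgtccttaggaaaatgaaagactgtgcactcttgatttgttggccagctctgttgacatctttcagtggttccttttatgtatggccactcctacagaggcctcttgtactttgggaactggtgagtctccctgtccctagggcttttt

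The stretch between ABCG5 and ABCG8 had a GC content of 60.3% and that before ABCC2 of 45.6%. RefSeq promoters of 300 bases were found for 35 of the 45 members, in 53 windows, and 10 members had none. Motifs were searched on both strands of all 35116 promoter windows, and a match is a description of letters only. The antioxidant response core TGACNNNGC was in 12 of the 53 windows (22.6%) against 13.4% of all windows, among them those of ABCG2, ABCC4 and ABCB6. The E-box CACGTG was in 9 windows (17.0%) against 7.26%, from 8 of the 35 members. Overlapping windows of ABCG2 held the same CACGTG site, so windows are not independent. TATAAA was in 8 windows (15.1% against 11.5%), GGGCGG in 25 (47.2% against 44.95%), CCAAT in 12 (22.6% against 34.6%) and GTTAAT, a motif of HNF1, in 1 (1.89% against 6.88%). CAAGGTCA, a motif of the nuclear receptor NR5A2, and the direct repeat of the LXR receptors were in none, against 1.28% and 0.0199% of all windows.

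The libraries held 15597117 to 32583547 estimated counts, with a median of 26090811. In HepG2 the mitochondrially encoded genes took 71.1%, 33.8% and 32.6% of the counts of its 3 libraries, against 0.928% to 5.72% in the other 24. In TPM, which corrects for transcript length, these genes held 789748, 423314 and 417549 TPM of the 3 HepG2 libraries. Because TPM is a share of the whole library, every other gene's TPM is lowered accordingly, so HepG2 levels are also given as TPM recomputed without mitochondrial genes (called rescaled TPM below). Tests of differences used edgeR's quasi-likelihood method on estimated counts with TMM scaling, which sets the library scale from the bulk of the genes, and Benjamini-Hochberg adjustment over the 17220 genes that passed a filter on low counts.

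The 45 members spanned levels from 0 to 301 TPM in a single library. In every one of the 27 libraries 12 members (26.7%) reached 1 TPM, against 33.96% of all protein-coding genes, and without HepG2 this number was 17. By contrast, 4 members (8.89%) stayed under 1 TPM in every library, against 19.7% of protein-coding genes: ABCB11, ABCC11, ABCC12 and ABCD2. These are deposited TPM on transcripts of the primary assembly, and ABCB11 was higher with the alternate copies described below. The summed TPM of all members was highest in A549, at 1001 ± 38.2 (SD, n = 3 in this and all later values with an SD), followed by SK-Mel 24 at 662 ± 15.0, SK-Mel 28 at 553 ± 17.9, U251 at 512 ± 29.3, Caco2 at 509 ± 73.9, U2-OS at 474 ± 30.5, RT4 at 439 ± 69.3 and BJ at 319 ± 17.0. HepG2 stood at 260 ± 130 TPM as deposited and 559 ± 37.5 rescaled TPM. ABCC3 and ABCC2 made up 29.6% and 16.2% of the sum in A549, ABCB6 30.1% in HepG2, ABCE1 25.9% in U2-OS and ABCB5 15.0% in SK-Mel 28.

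**Figure D1:**
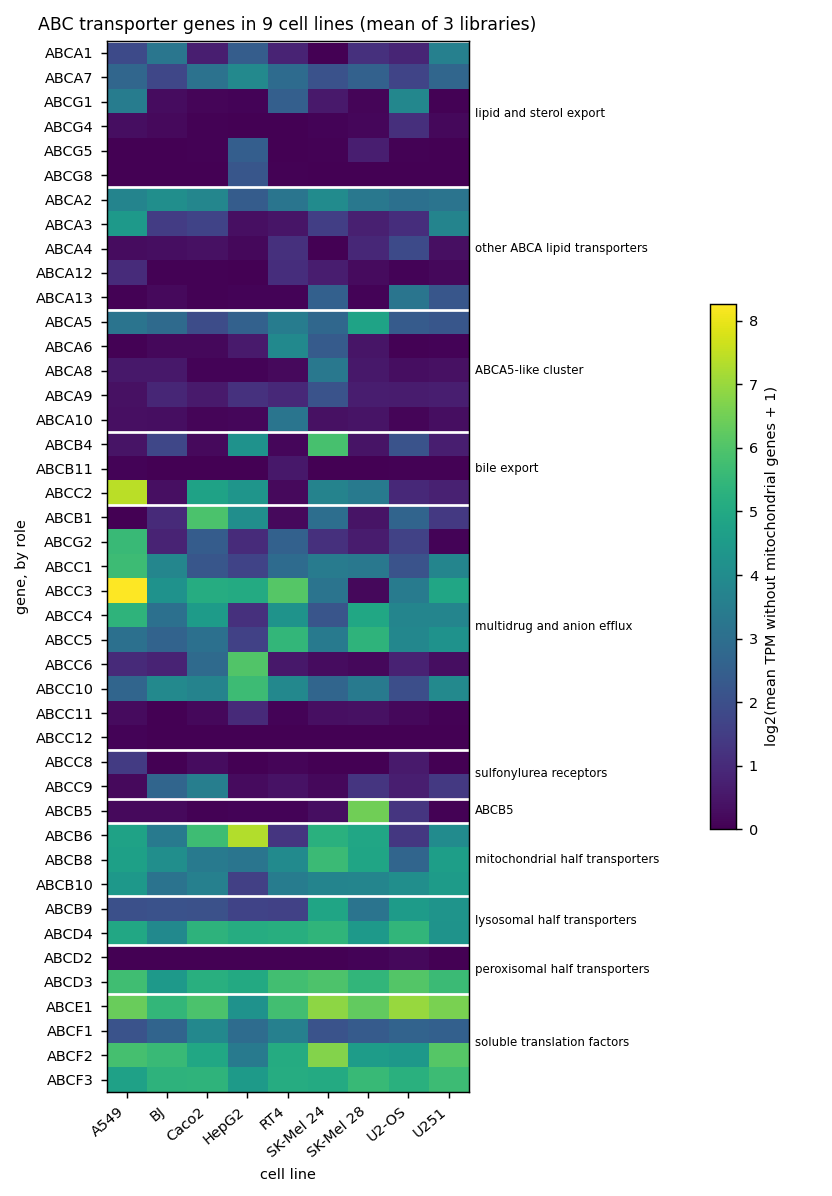
Mean level of 43 ABC transporter genes (rows, grouped by role) in the 9 cell lines (columns), as log2(mean rescaled TPM + 1) over 3 libraries. The brightest cell is ABCC3 in A549, ABCE1, ABCF2, ABCF3 and ABCD3 are present in every line, and ABCB5, ABCG5 and ABCG8 stand out in 1 line.

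Of the 45 members 43 passed the filter, all but ABCC12 and ABCD2, and members that passed through a single high line had to vary. All 43 differed among the 9 lines at an adjusted p under 0.05, where 98.3% of all tested genes did, so this count says little about the members. A gene was called line-enriched when its fitted level in 1 line was at least 4-fold above every other line and the largest of the 8 one-sided p-values passed after adjustment. There were 13 line-enriched members (30.2% of those tested) against 14.1% of all genes. By line they were 4 in HepG2 (3.82% of all genes), 3 in A549 (0.836%), 2 in SK-Mel 24 (0.929%), 2 in RT4 (2.07%), 1 in SK-Mel 28 (1.25%) and 1 in U2-OS (1.91%). In BJ, Caco2 and U251, with 1.77%, 1.18% and 0.314% of all genes, the edgeR fit of all transcripts and lines called no member. ABCB1 in Caco2 was called by limma on log2(TPM + 1), by edgeR on coding transcripts alone and by edgeR without HepG2, where ABCC6 was also called in Caco2. In 20 members (46.5%) the highest line differed from the next at least 2-fold with an adjusted p under 0.05, against 28.0% of all genes. The median log2 range of line means was 3.39 for members and 2.76 for all genes, and without HepG2 it was 2.77 and 1.90.

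Against the mean of the other 8 lines, 192 of 387 pairs of a member and a line were called (49.6%), against 33.9% over all genes. A549 had 15 members higher and 10 lower, where 18.4% and 10.8% of all genes were called. HepG2 had 16 higher and 13 lower (25.8% and 23.5% of all genes), RT4 13 and 13 (18.6% and 14.2%), SK-Mel 24 13 and 8 (19.0% and 11.2%) and SK-Mel 28 11 and 9 (20.3% and 13.4%). Caco2 had 9 higher and 10 lower (19.8% and 13.9%), U2-OS 9 and 14 (25.3% and 10.9%), U251 7 and 10 (15.0% and 11.6%) and BJ 6 and 6 (20.1% and 13.1%). Between single lines, the smallest number of members called was 13 of 43, for BJ against U251, where 35.0% of all genes were called. The largest was 33, for HepG2 against SK-Mel 24, where 56.9% of all genes were called.

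**Figure D2:**
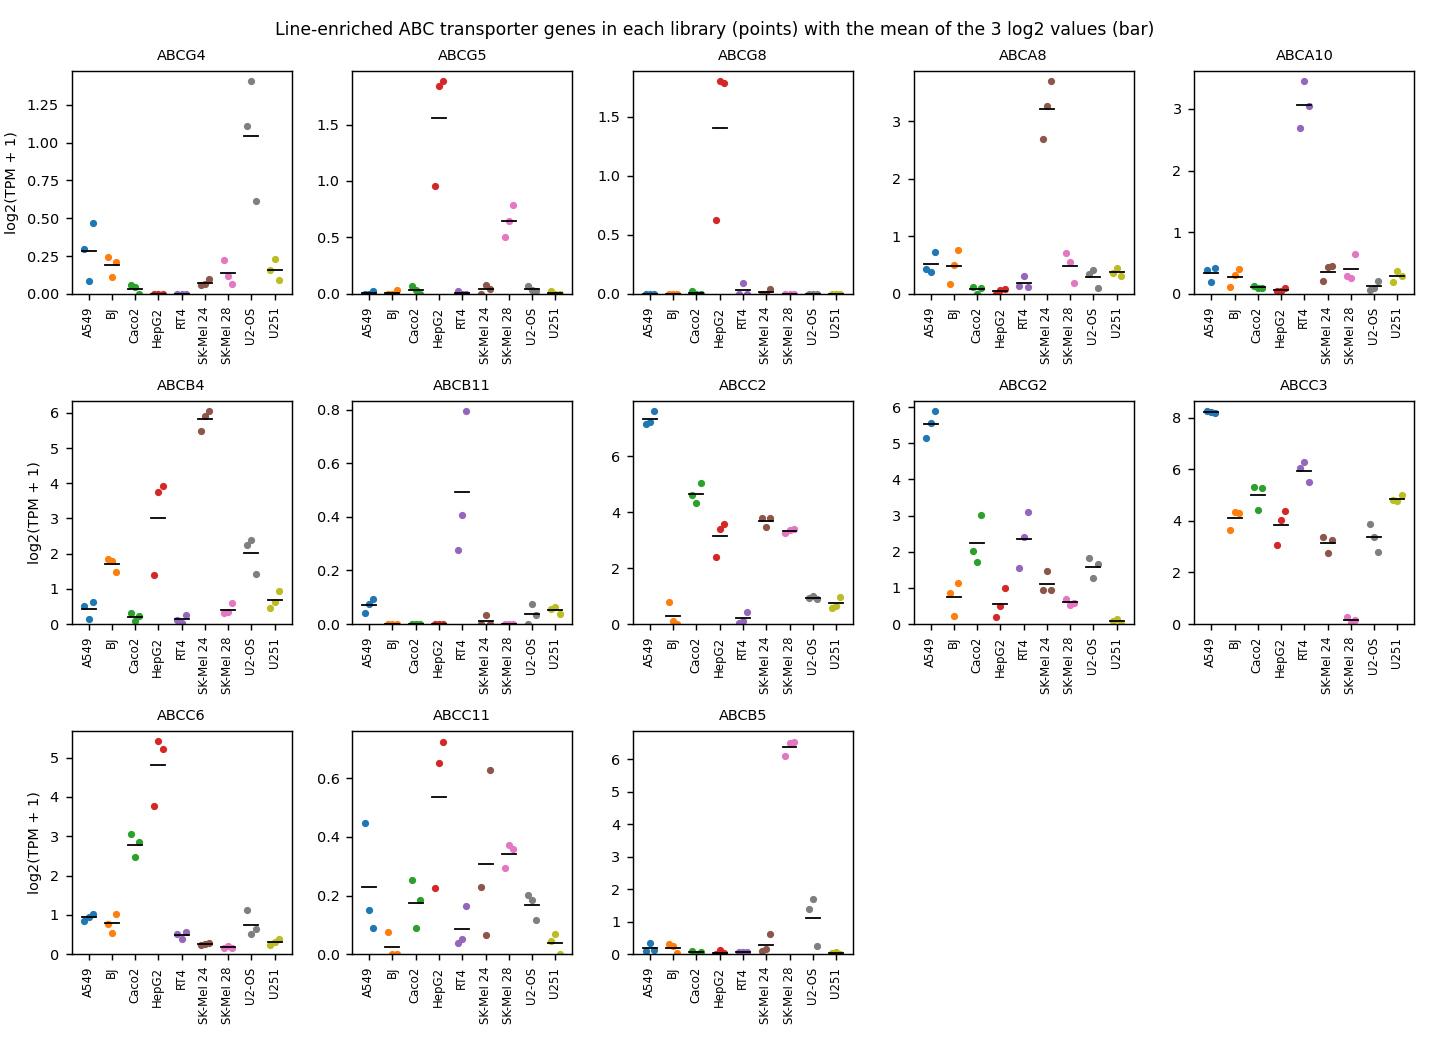
Level of each of the 13 line-enriched ABC transporter genes in every library, as log2(TPM + 1) of the deposited TPM, with the 9 lines on the horizontal axis; points are libraries and bars are means of the 3 log2 values. ABCC2, ABCC3 and ABCG2 are highest in A549, ABCC6, ABCC11, ABCG5 and ABCG8 in HepG2, ABCA8 and ABCB4 in SK-Mel 24, ABCA10 and ABCB11 in RT4, ABCB5 in SK-Mel 28 and ABCG4 in U2-OS.

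Among the 6 exporters of sterols and lipids, ABCG5, ABCG8 and ABCG4 were line-enriched and ABCA1, ABCA7 and ABCG1 were not. ABCG5 (chromosome 2, 43812472 to 43838865, minus strand) reached 0.942, 2.59 and 2.69 TPM in HepG2, or 4.48, 4.49 and 4.62 rescaled TPM. SK-Mel 28 was next with 0.42, 0.567 and 0.731 TPM, and the other 21 libraries lay between 0 and 0.0561 TPM. Every HepG2 library thus lay above every other library. The log2 difference between HepG2 and SK-Mel 28 was 3.82 (SE 0.48, edgeR quasi-likelihood adjusted p = 1.457e-07). In these bulk cultures a smaller share of expressing cells and less RNA per cell cannot be told apart.

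ABCG8 (chromosome 2, 43831942 to 43882987, plus strand), the obligate partner of ABCG5, was listed at 0.541, 2.48 and 2.44 TPM in HepG2, or 2.57, 4.31 and 4.19 rescaled TPM. No other library exceeded 0.0628 TPM, and 5 lines (A549, BJ, SK-Mel 28, U2-OS and U251) had no count at all. With 373 counts over the 3 HepG2 libraries and a floor of 3 counts over the 3 libraries of the other line, HepG2 was at least 216.7-fold (BJ) to 248-fold (U2-OS) higher than these 5 lines, a bound that covers counting error only. SK-Mel 28 therefore had ABCG5 at a mean of 0.573 TPM with ABCG8 at 0. The bodies of the pair overlap by 6924 bases on opposite strands and the strand setting of the counting is not given in the sources used here, so reads of the overlap cannot be told apart.

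ABCG4, a cholesterol exporter best known from brain, was at 1.15, 1.65 and 0.53 TPM in U2-OS and at most 0.385 TPM in the other 24 libraries, a log2 difference of 2.08 over the next line by the fit, BJ (SE 0.54, edgeR adjusted p = 0.00233). Without U2-OS replicate 1 or 2, or BJ replicate 2 or 3, ABCG4 was no longer line-enriched. The call was also lost with DESeq2, with limma, on coding transcripts alone and with the P number of the titles as a replicate block. ABCG1, which passes cholesterol to high-density lipoprotein, was at 16.7, 14.4 and 7.28 TPM in U2-OS, 7.93, 10.6 and 10.8 in A549 and at a mean of 4.22 in RT4, while the means of the other 6 lines ran from 0.0345 (HepG2) to 0.481 TPM (SK-Mel 24). The groups of U2-OS and A549 overlapped, with a log2 difference of 0.12 (SE 0.41, edgeR adjusted p = 0.824).

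ABCA1, which loads cholesterol and phospholipid onto apolipoprotein A-I, was at 11.7, 13.8 and 6.79 TPM in U251 and 5.59, 6.47 and 12.3 TPM in BJ. Both lines lay above the other 21 libraries, whose highest value was 3.15 TPM, but overlapped each other (log2 difference 0.08, SE 0.34, edgeR adjusted p = 0.889). After rescaling, HepG2 had 3.75, 4.03 and 5.4 TPM, and BJ and HepG2 did not differ past the threshold (0.33, SE 0.34, edgeR adjusted p = 0.393). SK-Mel 24 had 2 counts in all 3 libraries together. ABCA7, a phospholipid exporter, varied from 2.15 TPM in U2-OS to 7.27 TPM in Caco2, with 13.8 rescaled TPM in HepG2.

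Of the 5 other lipid transporters of subfamily A, none was line-enriched and none had a highest line that differed from the next by the rule. ABCA3, the surfactant lipid transporter of the lung, was at 19.5, 22.4 and 18.2 TPM in A549 and 13.5, 10.8 and 11.6 TPM in U251. These lines did not overlap each other or the rest, whose highest library was 2.49 TPM, and their log2 difference was 0.83 (SE 0.32, edgeR adjusted p = 0.0366), short of the 2-fold limit. ABCA13, the largest member, was at 11.1, 8.62 and 4.51 TPM in U2-OS, 5.32, 4.91 and 3.91 in SK-Mel 24 and at a mean of 3.57 in U251. The other 6 lines had means of 0.0118 (HepG2) to 0.137 TPM (BJ), and by the fit these 3 high lines did not differ past the threshold, with adjusted p from 0.0883 to 0.553 (edgeR). ABCA2, a lipid transporter of lysosomes known from myelin, was detected in every line at 1.88 (HepG2, 4.34 rescaled) to 15.2 TPM (BJ). ABCA12, the lipid transporter of skin, peaked at 1.05 TPM in RT4 and 0.971 TPM in A549, and ABCA4, the retinoid transporter of photoreceptors, at 2.56 TPM in U2-OS.

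The 5 ABCA5-like genes lie side by side on chromosome 17, all on the minus strand, in the order ABCA8, ABCA9, ABCA6, ABCA10 and ABCA5. Their highest lines were not the same. In all 5 the highest line differed from the next by the rule, and ABCA8 and ABCA10 were line-enriched. Functions of this group are less well known than those of the other subfamily A genes.

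ABCA8 (68867292 to 68955392) was at 5.47, 8.57 and 12.0 TPM in SK-Mel 24, while the other 24 libraries did not exceed 0.689 TPM. The log2 difference from A549 was 4.30 (SE 0.47, edgeR adjusted p = 2.784e-08). Its neighbour ABCA9 (68974488 to 69061064), 19095 bases away, was also highest in SK-Mel 24 at 1.26, 4.06 and 4.4 TPM, with the lowest of these inside the range of the others (up to 1.36 TPM). The log2 difference from HepG2 was 1.57 (SE 0.54, edgeR adjusted p = 0.0127), and it became 1.15 (adjusted p = 0.085) without SK-Mel 24 replicate 3, 1.26 (adjusted p = 0.0658) without HepG2 replicate 2 and 1.35 (adjusted p = 0.0575) without HepG2 replicate 3.

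ABCA6 (69078702 to 69141888) was at 13.7, 13.0 and 12.5 TPM in RT4 and 2.2, 2.4 and 7.74 TPM in SK-Mel 24. The 2 lines stood apart from each other and from the remaining 21 libraries, which reached 0.474 TPM. The log2 difference was 1.62 (SE 0.39, edgeR adjusted p = 0.00103), and without SK-Mel 24 replicate 3 ABCA6 became line-enriched. The RT4 call was lost with the P number of the titles as a linear covariate (1.10, edgeR adjusted p = 0.0691) and as a replicate block (-0.085, edgeR adjusted p = 0.952). ABCA10 (69147214 to 69244846) was at 5.45, 9.94 and 7.23 TPM in RT4 and at most 0.564 TPM elsewhere, a log2 difference of 4.25 from U251 (SE 0.48, edgeR adjusted p = 4.043e-08). In RT4 75.2% of ABCA10 TPM fell on the a single processed transcript of 2183 bases, and on protein-coding transcripts alone RT4 and U251 differed by a log2 value of 0.13 (edgeR adjusted p = 0.968).

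ABCA5 (69244311 to 69327244), a lysosomal member that overlaps the start of ABCA10 by 536 bases on the same strand, had 22.7, 28.5 and 24.7 TPM in the SK-Mel 28 libraries, all above the other 24 libraries, which held 1.29 to 10.8 TPM. The log2 difference between SK-Mel 28 and RT4 was 1.16 (SE 0.37, edgeR adjusted p = 0.0096). RT4 thus had the highest ABCA6 and ABCA10, SK-Mel 24 the highest ABCA8 and ABCA9, and SK-Mel 28 the highest ABCA5.

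**Figure D3:**
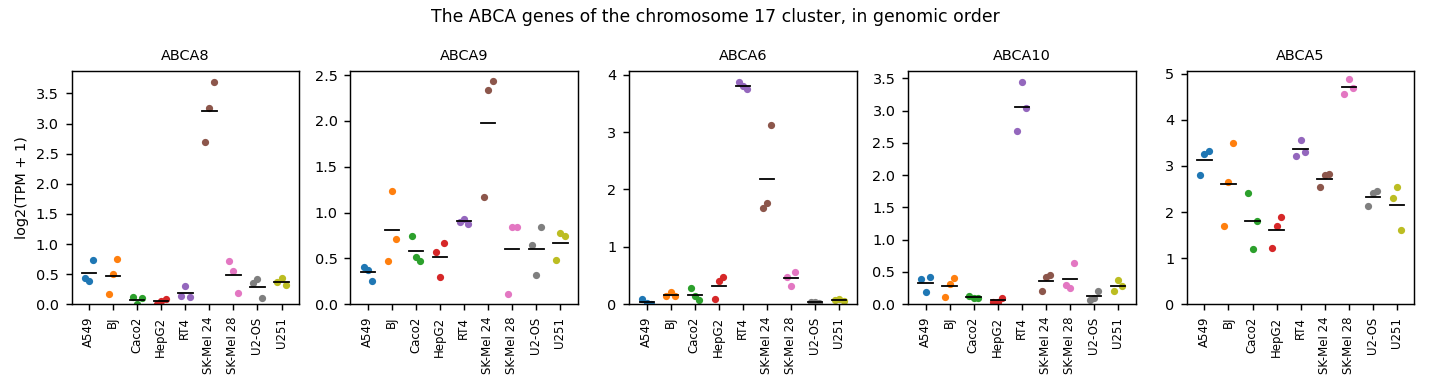
Level of the 5 ABCA genes of the chromosome 17 cluster, in genomic order from left to right, in every library as log2(TPM + 1) of the deposited TPM, with the 9 lines on the horizontal axis; points are libraries and bars means of the 3 log2 values. SK-Mel 24 is highest for ABCA8 and ABCA9, RT4 for ABCA6 and ABCA10, and SK-Mel 28 for ABCA5.

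All 3 bile exporters were line-enriched, and none of them in HepG2. ABCC2 (chromosome 10, 99782640 to 99852594), whose upstream letters are printed above, was at 142, 151 and 194 TPM in A549. Caco2 had 23.5, 19.0 and 32.4 TPM, HepG2 had 20.6, 16.8 and 19.0 rescaled TPM, and SK-Mel 24 and SK-Mel 28 had means of 11.8 and 9.14 TPM. The A549 libraries lay far above all others, and the other 4 lines had means under 1 TPM. The log2 difference between A549 and HepG2, the next line by the fit, was 2.30 (SE 0.26, edgeR adjusted p = 2.448e-08), while Caco2 and HepG2 did not differ past the threshold (0.33 higher in HepG2, SE 0.25, edgeR adjusted p = 0.254).

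ABCB4 (chromosome 7, 87401697 to 87480435), the phosphatidylcholine flippase of bile, was at 43.9, 59.5 and 64.8 TPM in SK-Mel 24. HepG2 was next with 1.6, 12.5 and 14.0 TPM (7.62, 21.7 and 24.1 rescaled), and the other 21 libraries reached 4.22 TPM. The SK-Mel 24 libraries lay above all others, and the log2 difference from HepG2 was 3.16 (SE 0.40, edgeR adjusted p = 2.019e-07). In SK-Mel 24 the 3 leading transcripts were coding, the first of them at 26.1 TPM, whereas in HepG2 23.4% of ABCB4 TPM was on coding transcripts.

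ABCB11, the bile salt export pump, was low in all lines on the transcripts of the primary assembly, which hold the smaller part of its reads. On these RT4 had 0.211, 0.327 and 0.734 TPM, from 68 counts over its 3 libraries, and the other 24 libraries reached 0.0669 TPM, with HepG2 at 0 counts. A floor of 3 counts put RT4 at least 12.8-fold above HepG2 on these transcripts. With the transcripts of alternate copies, which held 71.1% of ABCB11 counts, RT4 had 2.57 ± 1.15 TPM from 302 counts, and HepG2 stayed at 0. On the primary transcripts the log2 difference from A549 was 2.41 (SE 0.71, edgeR adjusted p = 0.00877), and ABCB11 kept its line-enriched call in 8 of the 36 alternative fits that tested it.

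Among the multidrug and anion pumps, 4 of the 9 tested were line-enriched (ABCC3, ABCG2, ABCC6 and ABCC11) and 6 had a highest line that differed from the next. ABCC3 (chromosome 17, 50634777 to 50692252), which moves glucuronides and bile salts back into blood, had the highest level of any member at 301, 298 and 291 TPM in A549. RT4 followed with 64.9, 76.9 and 44.9 TPM, and the other 21 libraries ran from 0.0181 to 39.1 TPM with a median of 13.5 TPM. The 3 A549 libraries were close together and apart from all others. The log2 difference from RT4 was 2.37 (SE 0.27, edgeR adjusted p = 4.491e-08), and SK-Mel 28 was lowest at a mean of 0.115 TPM. In A549 42.4% of ABCC3 TPM was on coding transcripts.

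ABCG2 (chromosome 4, 88090264 to 88231322), a pump for drugs and urate, was at 34, 46.2 and 57.8 TPM in A549 and 1.94, 4.26 and 7.5 TPM in RT4. No library outside A549 exceeded 7.5 TPM, and U251 was lowest at a mean of 0.0527 TPM. The log2 difference between A549 and RT4 was 3.08 (SE 0.37, edgeR adjusted p = 1.370e-07). Caco2 followed RT4 and did not differ from it past the threshold (0.46 higher in RT4, SE 0.35, edgeR adjusted p = 0.280).

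ABCB1 (chromosome 7, 87503633 to 87713323), the drug pump P-glycoprotein, was at 55.5, 47.7 and 68.2 TPM in Caco2. HepG2 had 21.3, 12.2 and 14.7 rescaled TPM, SK-Mel 24 had 8.05, 6.37 and 6.14 TPM and U2-OS had a mean of 5.21 TPM. Caco2 lay above all other libraries, and A549 had 0, 0.0113 and 0 TPM, a single count. The log2 difference between Caco2 and HepG2 was 1.53 (SE 0.27, edgeR adjusted p = 2.813e-05), and ABCB1 differed in 33 of the 36 pairs of lines, more than any other member. Its neighbour ABCB4, 23197 bases away on the same strand, was at 0.157 TPM in Caco2.

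ABCC1 (chromosome 16, 15949577 to 16143074), which exports glutathione conjugates, was at 54.0, 45.1 and 44.0 TPM in A549 and at no more than 14.4 TPM in the other 24 libraries, a log2 difference of 1.32 from BJ (SE 0.26, edgeR adjusted p = 1.263e-04). ABCC6 (chromosome 16, 16148928 to 16223522), which lies 5853 bases past ABCC1 on the opposite strand and supports ATP release from liver, was at 12.7, 41.6 and 36.3 TPM in HepG2, or 60.2, 72.2 and 62.3 rescaled TPM. Caco2 had 7.28, 4.52 and 6.24 TPM and the other 21 libraries stayed at or under 1.17 TPM. HepG2 lay above all other libraries, with a log2 difference of 3.20 from Caco2 (SE 0.34, edgeR adjusted p = 2.048e-08). A transcript of 714 bases carried 23.9 TPM of this level, and ABCC6 has near-identical partial copies in the genome, so its level is uncertain.

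ABCC4, an exporter of cyclic nucleotides, was at 33.2, 37.8 and 46.6 TPM in A549 and 26.4, 29.2 and 28.1 TPM in SK-Mel 28. A549 lay above all others by a log2 difference of 0.53 (SE 0.22, edgeR adjusted p = 0.0428), short of 2-fold, and HepG2 was lowest at a mean of 1.21 rescaled TPM. ABCC5, a related nucleotide exporter, was at 27.0, 49.6 and 42.6 TPM in RT4 and 28.6, 41.0 and 46.1 TPM in SK-Mel 28. These lines overlapped (0.35, SE 0.18, edgeR adjusted p = 0.0888) and both lay above the other 21 libraries, which reached 21.0 TPM. ABCC10 ran from 2.89 TPM in U2-OS to 23.2 TPM in HepG2 (49.5 rescaled). ABCC11, the earwax pump, was at 0.17, 0.571 and 0.652 TPM in HepG2 as deposited. The first of these was within reach of single libraries elsewhere (up to 0.546 TPM). The mitochondrial share lowers these HepG2 values, the first most of all. By counts the log2 difference from SK-Mel 28 was 2.55 (SE 0.55, edgeR adjusted p = 2.348e-04). ABCC11 overlaps LONP2 on the opposite strand.

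ABCB5 (chromosome 7, 20615207 to 20777038) is a pump known as a marker of melanoma subpopulations. It was at 68.3, 88.8 and 92.2 TPM in SK-Mel 28, 1.61, 2.27 and 0.181 TPM in U2-OS, and 0 to 0.528 TPM in the other 21 libraries. Only SK-Mel 28 was high, and the other melanoma line, SK-Mel 24, had a mean of 0.241 TPM. The log2 difference between SK-Mel 28 and U2-OS was 4.44 (SE 0.52, edgeR adjusted p = 8.718e-08). ABCB5 in SK-Mel 28 was carried mainly by a coding transcript of 2247 bases (44.8 ± 7.66 TPM) and another of 1483 bases (22.5 ± 5.21 TPM), and in U2-OS 96.4% of the low level was on a coding transcript of 5811 bases.

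The sulfonylurea receptors ABCC8 and ABCC9 are regulatory subunits of potassium channels. ABCC9 was at 9.85, 7.51 and 13.5 TPM in Caco2 and 4.16, 4.66 and 6.74 TPM in BJ, and the other 21 libraries reached 1.99 TPM. Caco2 and BJ did not overlap, but their log2 difference of 0.67 was short of 2-fold (SE 0.27, edgeR adjusted p = 0.0341). The pore subunit KCNJ8, with which ABCC9 assembles, was line-enriched in Caco2 at 46.6 ± 6.73 TPM, with BJ next at 9.5 ± 1.61 TPM. ABCC8 was at 1.69, 0.852 and 2.38 TPM in A549, from 98 counts, and at 0 counts in 5 lines. Its difference from U2-OS (1.62, SE 0.63, edgeR adjusted p = 0.0404) was lost in 5 of the 27 fits that left out a library, with adjusted p from 0.0692 to 0.136 without A549 replicate 1, 2 or 3 or U2-OS replicate 2 or 3, and with DESeq2 (adjusted p = 0.454).

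The 4 mitochondrial transporters of subfamily B were detected in every line, and none was line-enriched. ABCB6 (chromosome 2, 219209766 to 219219017), a porphyrin transporter, was at 24.1, 116 and 95 TPM in HepG2, or 115, 200.5 and 163 rescaled TPM, and at 52.4, 53.5 and 39.6 TPM in Caco2. The deposited values of the lines overlapped through the HepG2 library with the largest mitochondrial share, and the rescaled ones did not. The log2 difference was 1.25 (SE 0.23, edgeR adjusted p = 5.161e-05). In HepG2 81.2% of ABCB6 TPM was on a transcript of 679 bases annotated for nonsense-mediated decay, and on coding transcripts alone the log2 difference was -0.28 with no call (edgeR adjusted p = 0.320). RT4 and U2-OS were lowest at means of 1.29 and 1.49 TPM.

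ABCB10, which acts in haem synthesis, was at 21.4, 27.3 and 16.8 TPM in U251, overlapping A549 at 18.2, 19.9 and 20.3 TPM, and lowest in HepG2 at 1.94 rescaled TPM. ABCB8 ran from 3.98 TPM in HepG2 (8.36 rescaled) and 5.32 in U2-OS to 47.3 TPM in SK-Mel 24. None of the 5 partner genes for mitochondrial iron and haem (FECH, SLC25A37, SLC25A38, TMEM14C and ALAS1) was line-enriched.

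Of the lysosomal pair, ABCB9, a peptide transporter, was at 25.6, 24.3 and 32.7 TPM in SK-Mel 24 and 31.3, 21.2 and 12.8 TPM in U2-OS, with overlap, while the means of A549, BJ, Caco2, HepG2 and RT4 were at 0.901 to 3.09 TPM. ABCB9 overlaps ARL6IP4 and OGFOD2 on the opposite strand. ABCD4, needed for release of cobalamin from lysosomes, ran from 13.3 TPM in BJ to 41.5 TPM in U2-OS as deposited. By the fit HepG2 was highest, with RT4 next (log2 difference 0.39, SE 0.15, edgeR adjusted p = 0.0235), short of 2-fold. In HepG2 6.78% of ABCD4 TPM was on coding transcripts, against 8.52% to 26.9% elsewhere. The ABCD4 partners LMBRD1 and MMACHC were not line-enriched.

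ABCD3, a peroxisomal transporter, ran from 14.3 TPM in HepG2 (31.3 rescaled) to 63.3 TPM in U2-OS and differed in 3 of 36 pairs of lines. ABCD2 stayed at or under 0.212 TPM. PEX19 and PEX3, which bring such proteins to the peroxisome, were not line-enriched.

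None of the 4 soluble members was line-enriched by edgeR. ABCE1, which splits ribosomes at the end of translation, was at 87.3, 96.4 and 185 TPM in U2-OS and 108, 129 and 104 TPM in SK-Mel 24, with overlap (edgeR adjusted p = 1), and differed in 4 of 36 pairs of lines. HepG2 was lowest at 18.6, 16.9 and 17.7 rescaled TPM, although its difference from BJ, at a mean of 41.4 TPM, missed the threshold by counts (0.55 higher in BJ, SE 0.25, edgeR adjusted p = 0.0536). ABCF2 was at 108, 99.6 and 105 TPM in SK-Mel 24 and 62.7, 62.6 and 70.7 TPM in U251, a log2 difference of 0.68 (SE 0.22, edgeR adjusted p = 0.0120), short of 2-fold. ABCF2 shares its strand with the overlapping gene AC021097.2, and ABCE1 overlaps ANAPC10 and OTUD4 on the opposite strand. ABCF3 ran from 10.4 TPM in HepG2 (21.6 rescaled) to 48.6 TPM in U251 and differed in 3 of 36 pairs of lines. None of the 4 partners in ribosome recycling and rescue (PELO, HBS1L, ETF1 and EIF2S1) was line-enriched.

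Caco2 and HepG2 carry the labels colon and liver, and bile and sterol exporters act in gut and liver, so these lines were compared as a pair with the other 7 lines. Of the 43 members 12 were higher (27.9%), against 20.7% of all genes, and 9 were lower (20.9%), against 20.1% of all genes. Together these 21 members compare with 40.8% of all genes called in either direction. The median log2 difference was -0.38 over the members and -0.105 over all genes. As background to this contrast, the summed rescaled TPM of the 4 hepatocyte markers was 20433 to 37655 in HepG2, 727 to 1061 in Caco2 and 0.222 to 193 in the other 7 lines. That of the 4 enterocyte markers was 310 to 555 in Caco2, 66.1 to 91.1 in HepG2 and 0.0179 to 3.00 elsewhere. The part of cell identity in these differences was not tested.

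The pumps and sterol exporters held most of the higher members. Of the 9 tested multidrug and anion pumps 5 were higher and 2 lower (median 1.20), with ABCB1 at 6.04 (all values of this paragraph passed the edgeR call), ABCC6 at 5.48, ABCC11 at 2.60, ABCC3 at 1.32 and ABCG2 at 1.20 on the log2 scale. Of the 6 lipid and sterol exporters 3 were higher and 1 lower (median 1.10), with ABCG5 at 4.34 and ABCA1 at 1.22. ABCG8, with 1 count in Caco2, was also called, but not without Caco2 replicate 1 (edgeR adjusted p = 1). The ABCG5 and ABCG8 calls rest on HepG2, since Caco2 had means of 0.0241 and 0.00607 TPM. Against the mean of the other 8 lines, HepG2 had 4 of the 6 lipid and sterol exporters higher and 1 lower (median 2.30). Caco2 had 0 higher and 1 lower (median -0.70). For ABCA1 only SK-Mel 24 had a lower mean TPM than Caco2. For ABCC11 Caco2 had a lower mean TPM than SK-Mel 28, SK-Mel 24 and A549. As deposited, which lowers HepG2, the HepG2 mean of ABCG2 was above that of U251 only. That of ABCC3 was below those of A549, RT4, Caco2, U251 and BJ. Of the bile exporters ABCC2 was higher by 4.29, and ABCB6 (2.78), ABCF1 (1.84) and ABCC9 (1.61) were also called higher. The ABCF1 call was lost when alternate copies were added (0.04, edgeR adjusted p = 0.798). ABCC9 was higher in Caco2 against the mean of the other 8 lines (4.15) but lower in HepG2 (-1.33), so its call rests on Caco2.

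ABCA1 and ABCG2 were higher by this test but had negative log2 differences, short of a call, by limma on log2(TPM + 1), at -0.50 (limma adjusted p = 0.00534) and -0.31 (limma adjusted p = 0.134). The limma fit used deposited TPM, which the mitochondrial share lowers in HepG2, and the part of this was not tested. For ABCG2, A549 had the highest level of all lines, and for ABCA1, U251 and BJ did. The 9 lower members were ABCA12 (-5.16), ABCG1 (-3.97), ABCA13 (-3.63), ABCA8 (-3.14), ABCB5 (-1.62), ABCC1 (-1.46), ABCA3 (-1.27), ABCC5 (-1.25) and ABCB10 (-1.10). The ABCB5 call was lost without HepG2 replicate 1 or 3 or Caco2 replicate 2, with edgeR adjusted p of 0.0529 to 0.0662. ABCA1 fell to 0.86, under 2-fold, without Caco2 replicate 1. On coding transcripts alone the calls of ABCC3 (0.63, edgeR adjusted p = 0.00893), ABCG5, ABCG1, ABCB5 and ABCB10 were lost. Limma also gave no call for ABCC3 (0.17, limma adjusted p = 0.383), ABCC11 (0.18), ABCC9, ABCF1, ABCG5, ABCG8, ABCA8 and ABCA12.

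Partner lists, chosen with earlier results of these data known, are set beside the 20.7% of all genes called higher in this comparison and 20.1% called lower. Of the 13 transcription factors of ABC genes 8 were higher in Caco2 and HepG2 and 1 was lower. NR1H4, the bile acid receptor that induces ABCB11, was line-enriched in HepG2 at 22.4 ± 14.4 TPM (44.4 ± 14.7 rescaled), where ABCB11 was at 0 counts. NR1I2, a receptor for xenobiotics, was line-enriched in HepG2 at 2.03 ± 0.893 TPM (4.52 ± 0.391 rescaled), and NR5A2 in A549 at 19.4 ± 0.83 TPM. Of the lipid acceptors and the bile flippase 3 of 4 were higher, and APOA1, APOE and LCAT were line-enriched in HepG2, with LCAT at 195 ± 43.3 rescaled TPM. Of the 10 tested uptake carriers 7 were higher and none lower. SLC10A1, the bile salt carrier of hepatocytes, was line-enriched in Caco2 at 2.17 ± 0.972 TPM, as was SLCO2B1 at 65.1 ± 35.7 TPM. CFTR, an ABC gene under another symbol, was line-enriched in Caco2 at 32.3 ± 10.8 TPM.

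The 2 melanoma lines were set against each other as lines that share a tissue label. In SK-Mel 28, 9 members were higher than in SK-Mel 24 (20.9%), against 15.5% of all genes, and 12 were lower (27.9%), against 16.5% of all genes. Again 21 members were called, against 32.0% of all genes in either direction. The median log2 difference was -0.36 over members and 0.00 over all genes. The summed rescaled TPM of the 4 melanocyte markers was 9869 to 15105 in SK-Mel 28 and 225.2 to 294 in SK-Mel 24, with no marker at 0 in either, and its part in the differences was not tested. The 2 lines also differed in serum share.

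ABCB5 was higher in SK-Mel 28 by 9.40 on the log2 scale (an edgeR call, as are the others named here), from 0.241 to 83.1 TPM in the mean. ABCA1 had 569 counts in SK-Mel 28 and 2 in SK-Mel 24, a ratio of 250.6 (exact 95% interval 69.0 to 2074, counting error only), and ABCA4 was at least 15.0-fold higher against 0 counts. ABCG5 (4.03), ABCC4 (3.07), ABCC9 (2.84), ABCA5 (2.37) and ABCC5 (2.29) were also higher. The largest falls were ABCB4 (-8.94) and ABCC3 (-7.29), from 56.1 to 0.334 and from 7.88 to 0.115 TPM.

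Of the 5 ABCA5-like genes 3 were lower in SK-Mel 28, ABCA8 (-5.83), ABCA9 (-4.14) and ABCA6 (-3.74), while ABCA5 was higher, and ABCA10 was not called. The rest of the lower members were ABCA13 (-6.43), ABCB1 (-5.94), ABCG1 (-3.03), ABCF2 (-2.24), ABCA3 (-1.87), ABCB9 (-1.20) and ABCD4 (-1.09). ABCC2 and ABCC1 missed the call (-0.28, edgeR adjusted p = 0.379, and -0.08, adjusted p = 0.855), as did all 4 mitochondrial members. Both lysosomal members were lower, and ABCB9 lost its call without SK-Mel 28 replicate 2 (-0.98).

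HepG2 differed from the other lines in which transcripts carried a member's level. Over all nuclear protein-coding genes, transcripts not annotated as coding carried 21.5% to 24.1% of TPM in HepG2, compared with 10.4% to 14.0% in the remaining libraries. Of the 27 members whose mean reached 0.5 TPM in HepG2 and another line, HepG2 had the lowest coding share of all such lines in 10 and the highest in 5. For ABCB6 the coding share was 7.16% in HepG2 and 32.7% to 88.7% elsewhere, for ABCB1 5.72% and 27.7% to 63.0%, and for ABCF3 9.92% and 63.8% to 93.9%. For ABCC10 it was 95.7% in HepG2 and 76.3% to 92.7% elsewhere, and for ABCC2 97.6%, within the range of the others. The part of RNA quality or of the mitochondrial share in this was not tested.

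**Figure D4:**
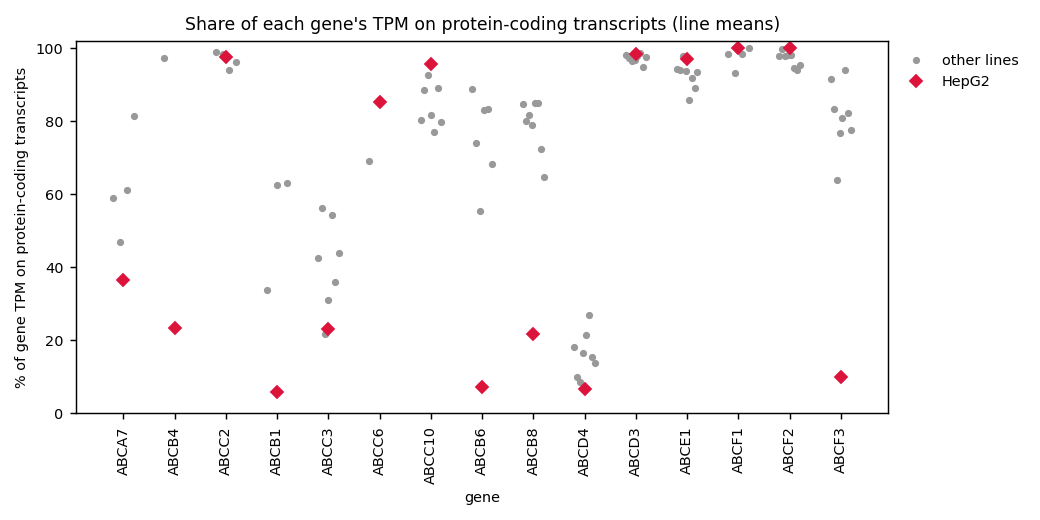
Share of each gene's TPM (vertical axis, percent) on transcripts annotated as protein coding, for members (horizontal axis) with at least 5 rescaled TPM in HepG2; red diamonds are HepG2 and grey points the other lines with at least 5 rescaled TPM. HepG2 lies far below the others for ABCB1, ABCB4, ABCB6, ABCB8 and ABCF3, and above them for ABCC6 and ABCC10.

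For 4 members a large part of the reads was on transcripts outside the primary assembly, which the gene sums above leave out. This share was 89.6% for ABCF1 over 42 such transcripts, 71.1% for ABCB11, 60.0% for ABCC1 and 44.7% for ABCC6. With these copies added, ABCF1, a translation factor, ran from 42.6 TPM in A549 to 79.3 TPM in U2-OS, with 60.1 rescaled TPM in HepG2, and its higher call in Caco2 and HepG2 was lost (0.04 on the log2 scale, edgeR adjusted p = 0.798). ABCC1 stood at 110 ± 4.57 TPM in A549 and its lower call in Caco2 and HepG2 was lost (-0.64, short of 2-fold). ABCC6 reached 126 ± 13.0 rescaled TPM in HepG2 and 11.9 ± 3.21 TPM in Caco2. The set of 13 line-enriched members was the same with the copies added.

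**Figure D5:**
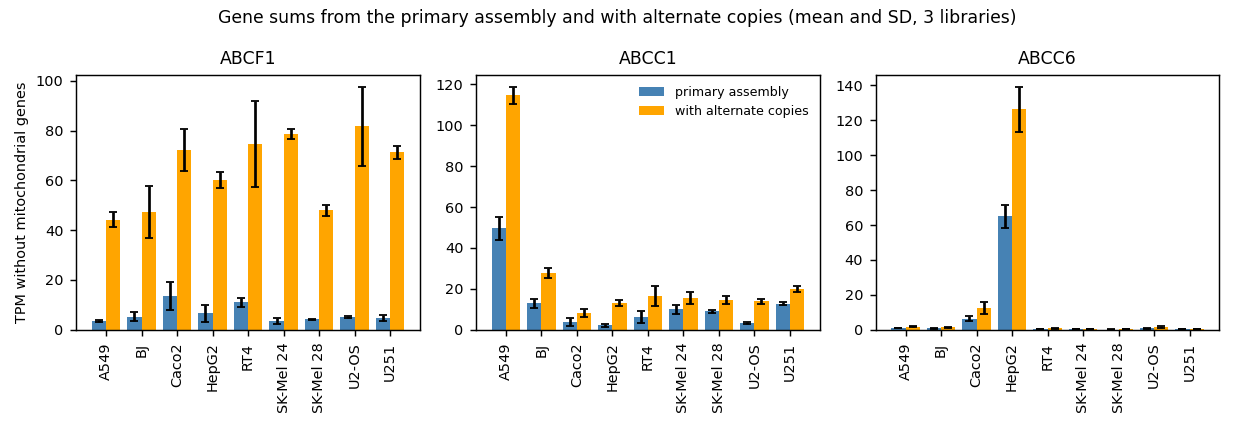
Rescaled TPM (mean of 3 libraries, error bars SD) of ABCF1, ABCC1 and ABCC6 in the 9 lines, summed from transcripts of the primary assembly (blue) and with transcripts of alternate copies added (orange). ABCF1 changes from a peak in Caco2 to a level above 40 in every line, while ABCC1 stays highest in A549 and ABCC6 in HepG2.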

How the data were processed

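Poly-A RNA was sequenced from 9 human cell lines with 3 libraries each, from a stranded kit per the labels' protocols. Reads were handled with CASAVA 1.8 and kallisto 0.43.1 on GRCh38 per the submitters' processing notes. Neither the annotation release of the index nor the strand setting is given in the sources used here. The authors deposited, per transcript, estimated counts and TPM per the file headers. Both were summed here to genes through GENCODE 29: 159887 of 176241 transcripts matched and 16354 (9.28%) did not. The test was edgeR 4.0.16 under R 4.3.3 on rounded estimated counts (robust quasi-likelihood, TMM, a low-count filter, 1 coefficient per line over all 27 libraries, Benjamini-Hochberg over 17220 genes; biological coefficient of variation 24.2%). A call needed an adjusted p under 0.05 and a log2 difference of at least 1. Level order in TPM can differ from the order of fitted levels. DESeq2 1.42.0 and limma 3.58.1 on log2(TPM + 1) of the deposited TPM served as alternatives. The fit was tested on simulated data.

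Library values are given for members that were line-enriched, reached 50 TPM in a line, or spanned 16-fold with at least 5 TPM; partner genes only where line-enriched beside a member. Members were chosen by name only. Their role groups and the partner and marker lists were chosen with earlier results of these data known. The sums with alternate copies were added after seeing the data. Libraries of a line differed from each other by more than sampling noise. The median chi-square over genes, relative to sampling noise, was 136.5 and 166.5 for HepG2 replicate 1 against replicates 2 and 3. All other pairs within a line lay between 5.44 and 29.4. Libraries of different lines can share the P number of their titles, but deviations of same-numbered libraries had a median correlation of -0.02 (-0.20 to 0.31 over 38 pairs). Library pairs of different lines and different numbers had a median of -0.0015 (-0.41 to 0.49 over 286 pairs). Promoter sequences are from RefSeq on GRCh38.p14. Results on some members are not reported here.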

Additional observations from a re-analysis of the deposited data

How the results depend on the processing

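The count of line-enriched members was 13, and the P number of the titles as a replicate block gave 8. Leaving out 1 library at a time gave 11 to 14. The block, whose numbers have no stated meaning, left the other counts within 1.5 times and turned ABCA6 in RT4 against SK-Mel 24 to -0.085 on the log2 scale. Calls of a member in a line against the other 8 numbered 192, and 123 with limma on log2(TPM + 1); leaving out 1 library gave 187 to 196. The ranges over left-out libraries were 43 to 44 members that differ among lines, 19 to 20 whose highest line differs from the next, 20 to 23 in the Caco2 and HepG2 comparison and 20 to 22 in the melanoma comparison. Directions turned for ABCA1 (-0.50) and ABCG2 (-0.31) with limma in the Caco2 and HepG2 comparison, and for ABCB6 in HepG2 against Caco2 (-0.28) on coding transcripts; the cause was not tested. ABCA8, ABCB4, ABCB5, ABCC2, ABCC3 and ABCG2 kept their line-enriched call in all 37 alternative fits. Of the fits that tested the gene and included its line, ABCC6 kept the call in 36 of 36, ABCA10 in 35 of 37, ABCG5 and ABCG8 in 34 of 36, ABCC11 in 32 of 35, ABCG4 in 29 of 37 and ABCB11 in 8 of 36. The last 5 of these had mean levels of 0.424 to 2.07 TPM in their highest line, and the part of depth in the lost calls was not tested. All 5 lost the call with limma and with the P number block. Limma used deposited TPM, which the mitochondrial share lowers in HepG2, the line of the ABCG5, ABCG8 and ABCC11 calls. The part of this lowering in the lost calls was not tested. On coding transcripts alone ABCG4 and ABCA10 lost it, and ABCB11 and ABCC11 did not pass the low-count filter.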
